A study of Mus musculus with 12 samples.

Results

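The mammalian circadian clock is a transcriptional feedback loop, and 10 of its core genes were followed by name in the hippocampus of APP/PS1 mice. All 10 were found among the 44760 genes present in both deposited tables. The positive arm was represented by Arntl and Clock, the negative arm by Per1, Per2, Per3, Cry1 and Cry2, and the nuclear receptor and output genes by Nr1d1, Dbp and Bhlhe40. The 12 libraries formed 4 groups of 3: nicotine at 18 months, saline at 18 months, nicotine at 7 months and saline at 7 months. Every mouse was a male APPswe/PS1dE9 transgenic on a C57BL/6 background (N9B6), carrying amyloid precursor protein with the Swedish mutation and presenilin 1 without exon 9, so no group lacked the transgenes. Nicotine hydrogen tartrate, labelled 48 mg/kg/h, or saline was delivered for 14 days by an osmotic pump under the skin. The mice lived under 12 h of light and 12 h of darkness. The clock time of tissue collection is not given in the sources used here, so a shift in phase and a change in level cannot be told apart.

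In this loop ARNTL (BMAL1) and CLOCK pair and bind E-box sequences in the promoters of the Per and Cry genes, of Nr1d1 and of Dbp. PER and CRY proteins then return to the nucleus and inhibit the ARNTL-CLOCK pair. NR1D1 (REV-ERB alpha) represses Arntl through ROR elements, DBP activates genes through D-boxes, and BHLHE40 (DEC1) competes for E-boxes. In tissues with a running clock Arntl peaks in antiphase to Nr1d1, Dbp and the Per genes. Per1 and Per2 also respond to neuronal activity through cAMP response elements and to glucocorticoids, and Bhlhe40 is activity-responsive as well.

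Matches to the letters of clock and response elements were looked for in the promoters, and a match is a description of the letters, not a bound site. RefSeq windows on GRCm38.p6, from 250 bases before to 50 bases after an annotated start, were held for 8 of the 10 genes (12 windows), and none for Per2 and Bhlhe40. Motifs were searched on both strands as the E-box CACGTG, the E-prime box CACGTT, the D-box TTATGTAA, the cAMP response element TGACGTCA with its core TGACGT, and the ROR and glucocorticoid response elements. The core lies within the full cAMP response element, so the pair overlaps by construction. The windows below hold a match and belong to Per1, Cry1 and Nr1d1, whose 7-month libraries separated by infusion, and to Arntl, on which NR1D1 acts. Capitals mark the matches, and every other base is in lower case.
Per1, upstream start (chr11:69098699-69098998, plus strand): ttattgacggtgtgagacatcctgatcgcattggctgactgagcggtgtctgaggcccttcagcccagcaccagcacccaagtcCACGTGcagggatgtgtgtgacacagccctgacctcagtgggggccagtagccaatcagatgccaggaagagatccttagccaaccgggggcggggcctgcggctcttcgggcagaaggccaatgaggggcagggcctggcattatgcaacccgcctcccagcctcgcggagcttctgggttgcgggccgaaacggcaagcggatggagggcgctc
Per1, downstream start (chr11:69099902-69100201, plus strand): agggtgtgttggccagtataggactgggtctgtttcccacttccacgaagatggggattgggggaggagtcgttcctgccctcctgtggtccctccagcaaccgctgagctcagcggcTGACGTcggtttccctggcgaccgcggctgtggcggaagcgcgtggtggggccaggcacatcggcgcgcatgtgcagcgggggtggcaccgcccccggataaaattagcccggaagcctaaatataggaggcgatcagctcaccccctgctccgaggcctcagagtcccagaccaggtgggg
Cry1 (chr10:85185005-85185304, minus strand): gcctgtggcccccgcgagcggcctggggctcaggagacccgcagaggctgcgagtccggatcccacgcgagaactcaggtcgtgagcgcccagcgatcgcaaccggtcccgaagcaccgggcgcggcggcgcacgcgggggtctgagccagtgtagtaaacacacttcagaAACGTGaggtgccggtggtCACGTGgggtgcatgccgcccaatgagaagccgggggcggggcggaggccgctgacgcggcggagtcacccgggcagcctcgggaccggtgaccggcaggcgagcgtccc
Nr1d1 (chr11:98775328-98775627, minus strand): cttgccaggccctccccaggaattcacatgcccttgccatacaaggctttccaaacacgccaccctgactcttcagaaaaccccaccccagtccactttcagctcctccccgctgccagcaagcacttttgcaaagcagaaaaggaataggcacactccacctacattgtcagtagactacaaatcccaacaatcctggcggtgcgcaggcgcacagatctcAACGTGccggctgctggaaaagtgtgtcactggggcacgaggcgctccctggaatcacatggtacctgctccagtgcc
Arntl, downstream start (chr7:113207261-113207560, plus strand): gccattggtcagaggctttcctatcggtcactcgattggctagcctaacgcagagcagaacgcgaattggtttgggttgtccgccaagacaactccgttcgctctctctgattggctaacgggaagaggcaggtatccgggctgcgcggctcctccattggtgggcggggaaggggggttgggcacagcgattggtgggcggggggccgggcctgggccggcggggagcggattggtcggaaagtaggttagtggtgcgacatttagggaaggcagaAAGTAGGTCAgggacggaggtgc

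The capitals in the upstream Per1 window are an E-box that begins 166 bases before the start, and those in the downstream window are a cAMP response element core 132 bases before it. Cry1 held an E-prime box 79 bases before its start and an E-box 60 bases before it. Nr1d1 held an E-prime box 28 bases before its start. The Arntl window held a ROR element that begins at base 28 of the transcript. Of the windows not shown, Per3 had D-boxes 205 and 158 bases before its start and Cry2 an E-prime box 166 bases before, while the Dbp and Clock windows held none of the motifs. Among all 32851 promoter windows of this length 7.15% held an E-box, 4.68% an E-prime box, 0.938% a D-box, 0.606% a ROR element and 7.51% the cAMP response element core. The full cAMP response element (1.79% of windows) and the glucocorticoid response element (0.00913%) were in none of the members' windows.

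Facts that touch the libraries come before the values. The 18-month libraries held 21260068 to 23715015 counts, and the 7-month libraries 25071195 to 29245972. Levels are CPM, counts scaled to library size and by TMM factors, a correction for library composition, with the SD over 3 libraries. Transcripts over 5000 nt took 35.8% to 36.6% of the counts at 18 months. At 7 months they took 22.8% to 23.7% in 5 libraries and 32% in saline library 2, which stood apart in this way from its group. Nicotine library 1 at 7 months held 5855 CPM of the choroid plexus transcript Ttr and 89.3 CPM of pituitary Gh. The 7-month libraries numbered 3 held 8110 (nicotine) and 17602 (saline) CPM of the ribosomal RNA Rn18s-rs5, against 455 to 690 CPM in the other 7-month libraries and 22224 to 27437 CPM at 18 months. Markers of the labelled tissue were present: the 9 hippocampal neuron markers summed to between 4487 and 5665 CPM in the 12 libraries. The 8 markers of the suprachiasmatic nucleus and hypothalamus, the seat of the central clock, summed to between 9.81 and 24.1 CPM, with Nms at 0 in all 6 libraries of 18 months. Most of that sum was Vip, with group means from 9.45 to 19.2 CPM. Avp was highest in 7-month saline library 1, at 5.26 CPM. Where nothing in the labels says that libraries of a group came from separate animals, the p-values measure the spread between these libraries.

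All 10 clock genes passed the filter on low counts in every comparison. Per kilobase of the longest annotated transcript, the mean CPM over the 12 libraries was highest for Nr1d1 (96.7 CPM per kb, range 68.9 to 137), above every library of the next gene. Bhlhe40 (38.2) and Cry2 (36.0 CPM per kb) overlapped each other in range and lay above Per1 (23.8). The ranges of Per1 and Dbp (20.0 CPM per kb) overlapped as well. Per3 (10), Arntl (8.25), Per2 (7.72) and Clock (6.91 CPM per kb) overlapped among themselves, and all were below Dbp. Cry1, the lowest at 3.78 CPM per kb, ranged from 2.73 to 5.01 and reached into the lower libraries of Per2 and Clock. Within the set the level varied least in Cry2, whose highest library was 1.26 times its lowest, and most in Per2, at 2.56 times.

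**Figure D1:**
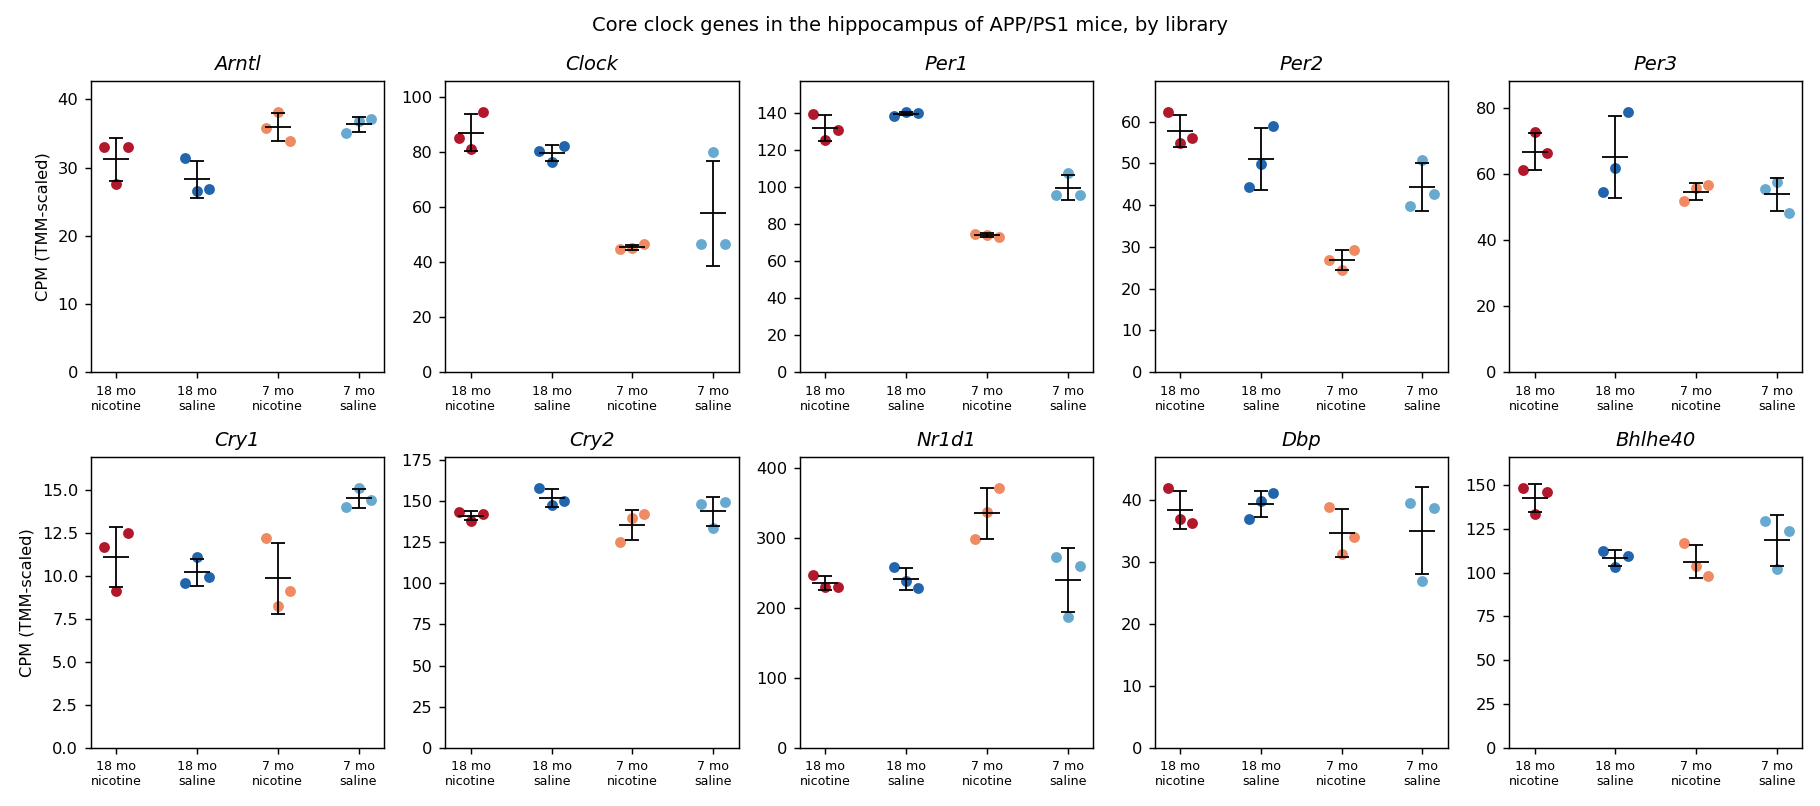
Level of each clock gene in CPM (vertical axes from 0) in the 12 libraries. Points are libraries 1, 2 and 3 from left to right within each group, and black bars are the mean ± SD (n = 3). Per1, Per2 and Cry1 had their 7-month nicotine points below all 7-month saline points, Nr1d1 had them above, and Bhlhe40 had its 18-month nicotine points above all 18-month saline points.

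The main comparison asked whether nicotine moved the clock genes in the early and in the late stage of disease. No clock gene passed at an adjusted p of 0.05 by edgeR's quasi-likelihood test at either age. At 7 months Per1, Per2 and Cry1 were lower in every nicotine library than in any saline library and Nr1d1 was higher, while Arntl, Dbp and Per3 had fold changes near 0. At 18 months that arrangement was not seen, and Bhlhe40, with an adjusted p of 0.067, came closest to passing. Against these counts, 0.044% of 18196 genes passed at 18 months (8 genes) and 0.0114% of 17596 at 7 months (2 genes). At an unadjusted p under 0.05 there were 2 of the 10 at 18 months (1 higher, 1 lower), where 6.73% of all genes lay (3.35% higher, 3.39% lower). There were 4 of the 10 at 7 months (1 higher, 3 lower), where 6.5% lay (2.57% higher, 3.93% lower). DESeq2, run as an alternative, called Bhlhe40 at 18 months, where it called 0.314% of genes, and Per1 and Per2 at 7 months, where it called 0.512%. The median log2 fold change of the 10 genes was 0.06 at 18 months and -0.13 at 7 months, against -0.00 and -0.01 over all genes tested.

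The Per genes code for the repressors whose accumulation times the loop. Per1 had 139, 125 and 131 CPM in the 18-month nicotine libraries, against 138, 140.2 and 139.9 CPM in the 18-month saline libraries. It had 74.8, 73.9 and 73.0 CPM in the 7-month nicotine libraries, against 95.8, 107 and 95.6 CPM in the 7-month saline libraries. The groups overlapped at 18 months and lay apart at 7 months, with the 3 nicotine libraries within 2 CPM of each other. The log2 fold change, nicotine over saline, was -0.10 (SE 0.05, adjusted p = 0.802) at 18 months and -0.45 (SE 0.10, adjusted p = 0.651) at 7 months. DESeq2 gave an adjusted p of 0.0248 for Per1 at 7 months.

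Per2 had 62.2, 54.9 and 56.2 CPM in the 18-month nicotine libraries, against 44.4, 49.7 and 59.0 CPM in the 18-month saline libraries. In the 7-month nicotine libraries it had 26.8, 24.4 and 29.2 CPM, against 39.8, 50.9 and 42.6 CPM in the 7-month saline libraries. Again the groups overlapped at 18 months and not at 7 months. The log2 fold change was 0.16 (SE 0.10, adjusted p = 0.843) at 18 months and -0.75 (SE 0.14, adjusted p = 0.633) at 7 months, and DESeq2 gave an adjusted p of 0.00278 at 7 months. Saline library 2 was the highest 7-month library for both genes. Without it the 7-month log2 fold changes were -0.62 for Per2 and -0.37 for Per1, with adjusted p of 0.261 and 0.258.

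Per3, a paralogue that is less central to the loop, ranged from 61.2 to 72.5 CPM in 18-month nicotine libraries and from 54.5 to 78.6 CPM in 18-month saline libraries. It ranged from 51.6 to 56.5 CPM in 7-month nicotine libraries and from 48.2 to 57.6 CPM in 7-month saline libraries. The nicotine range lay inside the saline range at both ages, and the log2 fold changes were 0.02 (SE 0.12) and 0.01 (SE 0.11) at 18 and 7 months. Single libraries left out moved these between -0.09 and 0.18 at 18 months and between -0.07 and 0.08 at 7 months.

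The cryptochromes, the partners of PER in repression, differed from each other. Cry1 had 11.7, 9.14 and 12.5 CPM in 18-month nicotine libraries, against 9.61, 11.1 and 9.97 CPM in 18-month saline libraries. It had 12.2, 8.27 and 9.11 CPM in 7-month nicotine libraries, against 14.0, 15.1 and 14.5 CPM in 7-month saline libraries. The 7-month groups did not overlap, though nicotine library 1, with its other-tissue RNA, lay nearest to saline. The log2 fold change of Cry1 was 0.11 (SE 0.13, adjusted p = 0.929) at 18 months and -0.57 (SE 0.17, adjusted p = 0.656) at 7 months. Cry2 averaged 141 ± 2.88 CPM under nicotine and 152 ± 5.37 CPM under saline at 18 months, without overlap (log2 fold change -0.12, SE 0.05, adjusted p = 0.684). At 7 months Cry2 averaged 136 ± 9.11 CPM under nicotine and 144 ± 8.71 CPM under saline, with overlap (log2 fold change -0.10, SE 0.10, adjusted p = 0.710).

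The positive arm showed little difference between the infusions apart from 1 library. Arntl, which codes for the obligate partner of CLOCK, had 33.0, 27.6 and 33.1 CPM in 18-month nicotine libraries, against 31.5, 26.5 and 26.8 CPM in 18-month saline libraries. It had 35.8, 38.1 and 33.9 CPM in 7-month nicotine libraries, against 35.1, 36.8 and 37.1 CPM in 7-month saline libraries. The groups overlapped at both ages, with log2 fold changes of 0.13 (SE 0.09, adjusted p = 0.867) at 18 months and -0.03 (SE 0.10, adjusted p = 0.912) at 7 months. Clock had 85.2, 81.1 and 94.4 CPM in 18-month nicotine libraries, against 80.1, 76.4 and 82.0 CPM in 18-month saline libraries. It had 44.5, 45.2 and 46.4 CPM in 7-month nicotine libraries, against 46.6, 79.7 and 46.5 CPM in 7-month saline libraries. Saline library 2 held Clock at the 18-month level. It also had a larger share of long transcripts, and Clock has the longest transcript of the set (9744 nt). The cause of the high value in that library was not tested. The 7-month log2 fold change of Clock was -0.36 (SE 0.22, adjusted p = 0.656) with that library and -0.04 (adjusted p = 0.904) without it, and 0.01 with offsets for transcript length and GC content.

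Nr1d1 codes for the nuclear receptor that represses Arntl. It had 247, 230.4 and 229 CPM in 18-month nicotine libraries, against 258, 238 and 228 CPM in 18-month saline libraries. It had 299, 337 and 372 CPM in 7-month nicotine libraries, against 272, 188 and 259.8 CPM in 7-month saline libraries. The 7-month nicotine libraries were the 3 highest of all 12, and saline library 2 was the lowest. The log2 fold change was -0.05 (SE 0.06, adjusted p = 0.928) at 18 months and 0.47 (SE 0.15, adjusted p = 0.656) at 7 months, and 0.34 (adjusted p = 0.499) at 7 months without saline library 2. Nr1d1 shares 263 of its 3077 exon bases (8.55%) with Thra on the other strand, which had 637 to 958 CPM. The strand setting of the counting is not given in the sources used here, so reads from the overlap cannot be assigned, and the level of Nr1d1 is uncertain to that extent. Thra itself had log2 fold changes of -0.02 at 18 months and 0.21 at 7 months.

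Dbp codes for a D-box activator and is a direct output of the loop. It ranged from 36.3 to 41.9 CPM in 18-month nicotine libraries and from 37.0 to 41.0 CPM in 18-month saline libraries. It ranged from 31.2 to 38.9 CPM in 7-month nicotine libraries and from 26.9 to 39.4 CPM in 7-month saline libraries. The groups overlapped at both ages, with log2 fold changes of -0.05 (SE 0.07) at 18 months and -0.02 (SE 0.16) at 7 months. Dbp shares 18% of its exon bases with Sphk2 on the other strand (40.3 to 70.8 CPM), and its counts are uncertain for the same reason. Without saline library 2 its 7-month log2 fold change was -0.17 (adjusted p = 0.697).

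Bhlhe40, an E-box repressor, had 148, 133 and 146 CPM in 18-month nicotine libraries, against 112, 103 and 109.5 CPM in 18-month saline libraries. At 18 months all nicotine libraries lay above all saline libraries. In 7-month nicotine libraries it had 117, 104 and 98.1 CPM, against 129, 102 and 124 CPM in 7-month saline libraries, with overlap. The log2 fold change was 0.38 (SE 0.05, adjusted p = 0.067) at 18 months and -0.17 (SE 0.12, adjusted p = 0.656) at 7 months. The 18-month value passed with DESeq2 (adjusted p = 2.53e-05), without the low-count filter (0.0139, where 0.109% of genes passed) and without nicotine library 2 (0.0383, where 0.0968% passed). In each of its other edgeR alternatives the adjusted p was above 0.05, with the lowest at 0.0653 under RLE scaling.

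**Figure D2:**
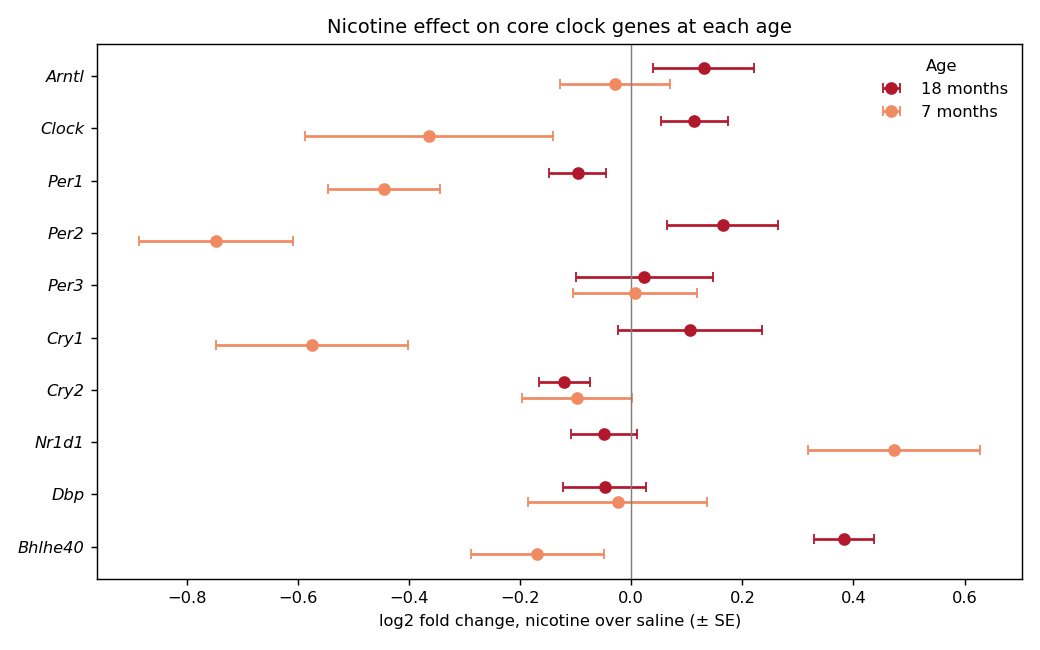
Log2 fold change of nicotine over saline for each clock gene (horizontal axis, points ± SE) at 18 months and at 7 months, each from the 6 libraries of that age. Bhlhe40 lies at 0.38 at 18 months, and Per2 (-0.75), Cry1 (-0.57), Per1 (-0.45) and Nr1d1 (0.47) lie farthest from 0 at 7 months, where no gene passed.

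In the counts of separated genes, 2 of the 10 had nicotine and saline libraries that did not overlap at 18 months (Bhlhe40 higher, Cry2 lower), where 11.8% of all genes tested did (6.61% higher, 5.14% lower). At 7 months 5 of the 10 did so (Nr1d1 higher; Clock, Per1, Per2 and Cry1 lower), where 17.4% of all genes did (9.04% higher, 8.37% lower). Clock is among the 5 only narrowly, at 46.4 CPM in the highest nicotine library against 46.5 CPM in the lowest saline library. No clock gene was separated in the same direction at both ages, a pattern held by 0.928% of genes.

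The nicotine effect was also compared between the ages, as the log2 fold change at 18 months minus that at 7 months in a fit of all 12 libraries. None of the 10 differences passed, and 0.00522% of 19171 genes did. The largest was that of Per2, at 0.91 (SE 0.17, unadjusted p = 0.000205 and adjusted p = 0.393 by edgeR). Cry1 had a difference of 0.68 (SE 0.22, adjusted p = 0.601), Bhlhe40 0.55 (SE 0.14, adjusted p = 0.526), Nr1d1 -0.52 (SE 0.18, adjusted p = 0.613) and Per1 0.35 (SE 0.10, adjusted p = 0.601). These 5 of 10 had an unadjusted p under 0.05, where 7.85% of all genes did. DESeq2 called the difference of Per2 (adjusted p = 0.00403), where it called 0.252% of genes. Without 7-month saline library 2 and nicotine library 1, edgeR called that of Bhlhe40 (0.70, adjusted p = 0.0321, where 0.031% of genes passed). That setting was added after the data were seen and leaves fewer libraries in both 7-month groups.

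Averaged over the ages, no clock gene passed either (0.0365% of 19171 genes did), and 3 of 10 had an unadjusted p under 0.05, where 6.86% did. Per1 had the smallest p, with a log2 fold change of -0.26 (SE 0.05, unadjusted p = 0.000264, adjusted p = 0.203). It passed in DESeq2 (adjusted p = 0.00106, where 0.413% of genes passed) and in edgeR without 7-month saline library 2 (-0.23, adjusted p = 0.0422, where 0.107% passed). It also passed there without 7-month saline library 2 and nicotine library 1 (adjusted p = 0.0418, where 0.222% passed), a setting added after the data were seen. Per2 averaged -0.28 (SE 0.09, adjusted p = 0.567) and Nr1d1 0.22 (SE 0.09, adjusted p = 0.672).

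The relation between the arms was read first from ratios of counts within a library, which do not depend on scaling between libraries. They are not ratios of transcript levels, since lengths differ. Nr1d1 over Per2 was 3.96, 4.20 and 4.09 in 18-month nicotine libraries, against 5.81, 4.79 and 3.86 in 18-month saline libraries. It was 11.2, 13.8 and 12.7 in 7-month nicotine libraries, against 6.84, 3.69 and 6.10 in 7-month saline libraries. At 7 months the lowest nicotine ratio was above the highest saline ratio, and these 3 libraries exceeded the other 9. In a tissue with a running clock both transcripts belong to the E-box-driven set. The longest transcript of Nr1d1 (2721 nt) is shorter than that of Per2 (5833 nt), and libraries differed in their share of long transcripts. That share was 35.8% to 36.6% at 18 months, 32% in 7-month saline library 2 and 22.8% to 23.7% in the other 7-month libraries. Saline libraries 1 and 3 were among the latter, with ratios (6.84 and 6.10) below those under nicotine. The part of this share in the ratios of counts was not tested.

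Nr1d1 over its target Arntl averaged 7.59 ± 0.711 under nicotine and 8.56 ± 0.392 under saline at 18 months, with overlap. At 7 months it averaged 9.38 ± 1.39 under nicotine and 6.62 ± 1.37 under saline, without overlap. Per2 over Arntl averaged 1.86 ± 0.148 under nicotine and 1.83 ± 0.396 under saline at 18 months, with overlap, and 0.749 ± 0.111 under nicotine and 1.22 ± 0.140 under saline at 7 months, without overlap. Dbp over Arntl averaged 1.23 ± 0.124 under nicotine and 1.40 ± 0.197 under saline at 18 months, and 0.968 ± 0.137 under nicotine and 0.966 ± 0.207 under saline at 7 months, with overlap at both ages (SD, n = 3 each). The ratios to Arntl therefore lay on opposite sides at 7 months: above saline for Nr1d1 and below it for Per2. These ratios were chosen after the values were seen, and no test is given for them.

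**Figure D3:**
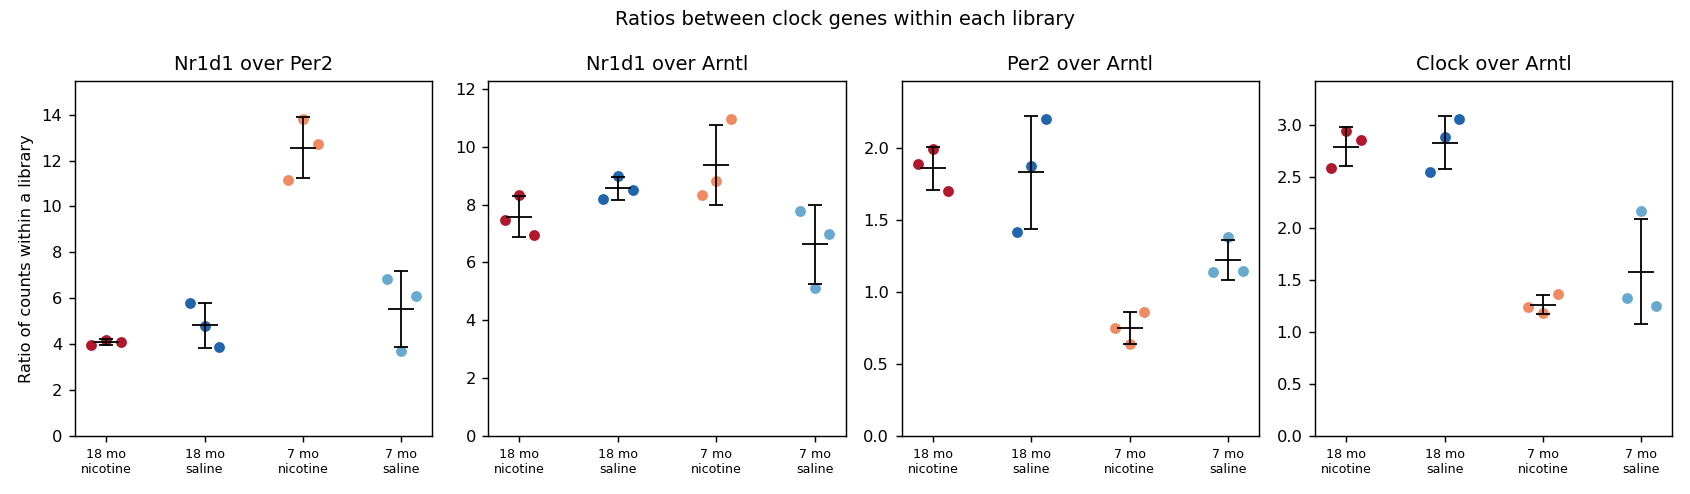
Ratios of counts between clock genes within a library (vertical axes from 0), with libraries 1, 2 and 3 from left to right in each group and the mean ± SD (n = 3) in black. Nr1d1 over Per2 lies between 11.2 and 13.8 in 7-month nicotine libraries and below 7 in the other 9, and Clock over Arntl is high in 7-month saline library 2 alone among the 7-month libraries.

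In all, 32 relations of Arntl or Clock with the 8 other genes were computed on log2 CPM within an age (6 libraries each). None passed after Benjamini-Hochberg adjustment over the 32, the smallest adjusted p being 0.267 for Pearson's r and 0.533 for Spearman's rho by exact permutation. For Arntl and Nr1d1 Pearson's r was 0.44 at 18 months (exact permutation p = 0.410, adjusted p = 0.946; rho 0.14, exact p = 0.803) and -0.33 at 7 months (exact permutation p = 0.526, adjusted p = 0.946; rho -0.31, exact p = 0.564). Without the 2 libraries farthest from the median of Arntl r was 0.88 at 18 months and -0.51 at 7 months. For Arntl and Dbp r was -0.22 at 18 months (exact permutation p = 0.731, adjusted p = 0.974; rho -0.31, exact p = 0.564) and -0.33 at 7 months (exact permutation p = 0.504, adjusted p = 0.946; rho -0.43, exact p = 0.419), and without the 2 farthest libraries it was -0.69 and -0.44. For Arntl with the Per genes, r at 18 months was -0.05 (Per1), 0.11 (Per2) and -0.53 (Per3), and at 7 months it was 0.20 (Per1), 0.04 (Per2) and -0.26 (Per3). The exact permutation p of these 6 r ranged from 0.290 to 0.944 (adjusted p from 0.915 to 0.979). Their rho ranged from -0.60 to 0.31, with exact p from 0.242 to 0.919 (adjusted p from 0.859 to 0.981).

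The smallest unadjusted p of the pooled values belonged to Clock and Per2 at 7 months, where r was 0.70 (exact permutation p = 0.00833, adjusted p = 0.267) and rho 0.89 (exact p = 0.0333, adjusted p = 0.533). Without the 2 libraries farthest from the median of Clock, saline library 2 among them, r was 0.83. Clock and Nr1d1 at 7 months had r = -0.84 (exact permutation p = 0.0611, adjusted p = 0.489; rho -0.71, exact p = 0.136), and -0.44 without those libraries. Clock and Dbp at 7 months had r = -0.78 (exact permutation p = 0.122, adjusted p = 0.652; rho -0.20, exact p = 0.714), which turned to 0.86 without those libraries and so rested on them. These r pool both infusions. With each group centred on its mean none of the 32 passed either (smallest adjusted p = 0.142, exact permutation), but single values differed: Arntl and Bhlhe40 at 18 months had r = 0.89 centred (exact p = 0.00556) and 0.72 pooled, and Arntl and Cry2 at 18 months had 0.94 centred (exact p = 0.0194) and -0.01 pooled. Arntl and Nr1d1 at 18 months had 0.70 centred (exact p = 0.165). Without the 2 libraries farthest from the median of Arntl, the pooled r of Arntl and Bhlhe40 at 18 months was 0.11. At 7 months Clock had centred r of 0.97 with Per1 (exact p = 0.0153) and 0.81 with Per2 (exact p = 0.0306). It had -0.90 with Dbp (exact p = 0.0167), -0.84 with Nr1d1 (exact p = 0.0417) and -0.84 with Bhlhe40 (exact p = 0.0222). Saline library 2, where Clock stood apart, is in these values.

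Genes outside the clock that resembled a member were taken by Pearson's r over 12 libraries, on log2 CPM centred on the mean of each age, among 12801 genes. Libraries of a group share an infusion and an age, and differences between libraries in depth and transcript length profile enter every gene's values, so the r are given as description. The 5 genes most like Per2 were Cald1 (r = 0.96), Alkbh1 (0.94), Tlr3 (0.93), Wwc1 (0.93) and Map2k6 (0.92). Per1 ranked 70 in likeness to Per2 (r = 0.85) and Cry1 313 (r = 0.78), while Nr1d1 stood near the other end (r = -0.83). Nearest to Arntl were Cap2 (r = 0.91), Jph1 (0.88), Dlg3 (0.88), Atg14 (0.88) and Abi1 (0.86), with its partner Clock at rank 2644 (r = 0.26). Nearest to Dbp were Shq1 (r = 0.95), Tpd52l2 (0.95), S100a16 (0.94), Cldn10 (0.93) and Stx4a (0.92), with Nr1d1 at rank 4543 (r = 0.36).

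Of 30 further clock genes, 29 were measured and none passed for nicotine at either age. At 18 months 3 were higher and 1 was lower at an unadjusted p under 0.05, where 3.35% of all genes were higher and 3.39% lower, and the median log2 fold change was 0.07. The smallest p belonged to Hlf, a relative of Dbp, at 141 ± 11.2 CPM under nicotine and 109 ± 16.4 CPM under saline (log2 fold change 0.36, adjusted p = 0.613). It was followed by the mitotic kinase gene Wee1 (0.28, adjusted p = 0.618), the F-box gene Fbxl21 (-0.51, adjusted p = 0.618) and Fbxw11 (0.16, adjusted p = 0.686). At 7 months 2 of the 29 were lower at an unadjusted p under 0.05, where 3.93% of all genes were lower, and the median was -0.12. Rorb, which codes for an activator at ROR elements, had 9.28, 8.67 and 8.02 CPM under nicotine, against 13.6, 15.5 and 12.5 CPM under saline, without overlap (log2 fold change -0.70, SE 0.15, adjusted p = 0.633). Sfpq followed with -0.40 (adjusted p = 0.656), then Bhlhe41 with -0.28 (adjusted p = 0.656) and Tipin with 0.30 (adjusted p = 0.656). Sfpq had 250 CPM in 7-month saline library 2, against 170 and 178 CPM in saline libraries 1 and 3.

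Per1 and Per2 also belong to programmes that respond to activity and to glucocorticoids, so those lists are set beside them. Both lists were chosen with earlier results of these data known, so their counts are description and no independent support. The 16 immediate early genes summed to 884 to 1011 CPM in 18-month nicotine libraries, against 979.5 to 1288 CPM in 18-month saline libraries, and 5 of the 16 were separated and lower and 2 higher (5.14% and 6.61% of all genes). At 7 months they summed to 584 to 716 CPM under nicotine, against 1172 to 1293 CPM under saline, and 13 of the 16 were separated and lower, where 8.37% of all genes were. The 13 glucocorticoid-response genes summed to 959 to 1050 CPM in 18-month nicotine libraries, against 713 to 824 CPM in 18-month saline libraries, and 11 of the 13 were separated and higher, where 6.61% of all genes were. At 7 months they summed to 1226 to 1817 CPM under nicotine, against 660.1 to 1044 CPM under saline, and 8 of the 13 were separated and higher, where 9.04% of all genes were. At 7 months Per1 and Per2 thus lay on the same side as the first list and opposite to the second, while at 18 months neither gene was separated. Bhlhe40, also activity-responsive, was separated and higher at 18 months (log2 fold change 0.38). There it lay opposite to the first list (median log2 fold change -0.36) and on the side of the second (median 0.38). At 7 months its groups overlapped (-0.17). The part of these programmes in the clock gene values was not tested.

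Markers of other cells are set beside the 7-month values, and none of them passed. The 5 endothelial markers summed to 102 to 138 CPM under nicotine, against 130.4 to 175 CPM under saline, with 3 of 5 separated and lower, where 8.37% of all genes were. The other 2 had log2 fold changes above 0. Flt1 was separated only narrowly, at 26.6 against 27.4 CPM, and had 53.6 CPM in saline library 2. The 7 oligodendrocyte markers summed to 4044 to 5566 CPM under nicotine, against 5490.4 to 6683 CPM under saline, with 2 of 7 separated and lower, against the same 8.37%. The 8 choroid plexus markers summed to 57.8 to 6160.0 CPM under nicotine, against 128 to 1623 CPM under saline, with none separated. Of the 9 neuron markers 1 was separated and higher and 1 lower, and the same held for the 5 astrocyte markers (9.04% and 8.37% of all genes). Among the 6 meningeal markers 1 was separated and lower, and no microglia or ependyma marker was separated. No defining marker of these lists was at 0. Their part in the clock gene values was not tested, and in bulk tissue fewer cells of a type and less RNA per cell cannot be told apart.

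The age comparison set 18 months against 7 months over both infusions. Averaged over the infusions, Per1 and Per2 were higher at 18 months and Arntl was lower. Per1 had 125 to 140.2 CPM in the 6 libraries of 18 months, against 73.0 to 107 CPM in the 6 of 7 months (log2 fold change 0.66, SE 0.05, adjusted p = 1.68e-06). Per2 had 44.4 to 62.2 CPM at 18 months, against 24.4 to 50.9 CPM at 7 months (log2 fold change 0.66, SE 0.09, adjusted p = 4.32e-05). Under saline alone Per2 averaged 51.0 ± 7.39 CPM at 18 months and 44.4 ± 5.75 CPM at 7 months, with overlap. Under nicotine alone it averaged 57.8 ± 3.93 CPM at 18 months and 26.8 ± 2.42 CPM at 7 months, without overlap. The averaged value of Per2 thus joins unlike differences. Arntl had 26.5 to 33.1 CPM at 18 months, against 33.9 to 38.1 CPM at 7 months (log2 fold change -0.28, SE 0.07, adjusted p = 0.00306). In all, 6 of the 10 clock genes passed (4 higher, 2 lower), where 66.9% of 19171 genes passed (32.5% higher, 34.4% lower), so the share in the set is near that of all genes. Libraries of the ages did not overlap for Per1 (higher) and Arntl (lower), that is 2 of 10, where 36.7% of all genes were so separated (18.2% higher, 18.5% lower). The ages were deposited in separate tables and differ in transcript length profile, so age and library set cannot be told apart.

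The calls of the other 3 that passed were lost under another scaling. Clock had 76.4 to 94.4 CPM at 18 months, against 44.5 to 79.7 CPM at 7 months (log2 fold change 0.70, SE 0.12, adjusted p = 0.000267), and -0.06 (adjusted p = 0.256) with offsets for transcript length and GC content. Per3 had a log2 fold change of 0.28 (SE 0.09, adjusted p = 0.0144), and -0.08 (adjusted p = 0.445) with the offsets. Nr1d1 had -0.25 (SE 0.09, adjusted p = 0.0277), and 0.09 (adjusted p = 0.205) with the offsets. Under saline alone Nr1d1 averaged 241 ± 15.2 CPM at 18 months and 240 ± 45.8 CPM at 7 months. Under nicotine alone it averaged 236 ± 9.74 CPM at 18 months and 336 ± 36.5 CPM at 7 months. Its call was also lost with RLE scaling (adjusted p = 0.0548) and without any of 18-month nicotine libraries 2 (0.0536) and 3 (0.0542), 18-month saline libraries 2 (0.0511) and 3 (0.0619), 7-month nicotine library 3 (0.0704) or 7-month saline libraries 1 (0.0682) and 3 (0.0579).

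With the offsets Per1 stayed at 0.66, Per2 was 0.39 (adjusted p = 0.000494) and Arntl -0.40 (adjusted p = 0.000275), and all 3 passed there. Under the same offsets Dbp (0.54, adjusted p = 1.8e-05), Bhlhe40 (0.21, adjusted p = 0.00805) and Cry2 (0.16, adjusted p = 0.00603) passed too, which they did not under TMM scaling. TMM scaling gave Dbp 0.16 (SE 0.10, adjusted p = 0.175), Bhlhe40 0.15 (SE 0.07, adjusted p = 0.0812), Cry2 0.07 (SE 0.05, adjusted p = 0.270) and Cry1 -0.17 (SE 0.11, adjusted p = 0.198). With the offsets 58.7% of 16934 genes passed. DESeq2, which called 65.9% of genes, called 7 of the 10 for age, Bhlhe40 (adjusted p = 0.0174) among them.

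**Figure D4:**
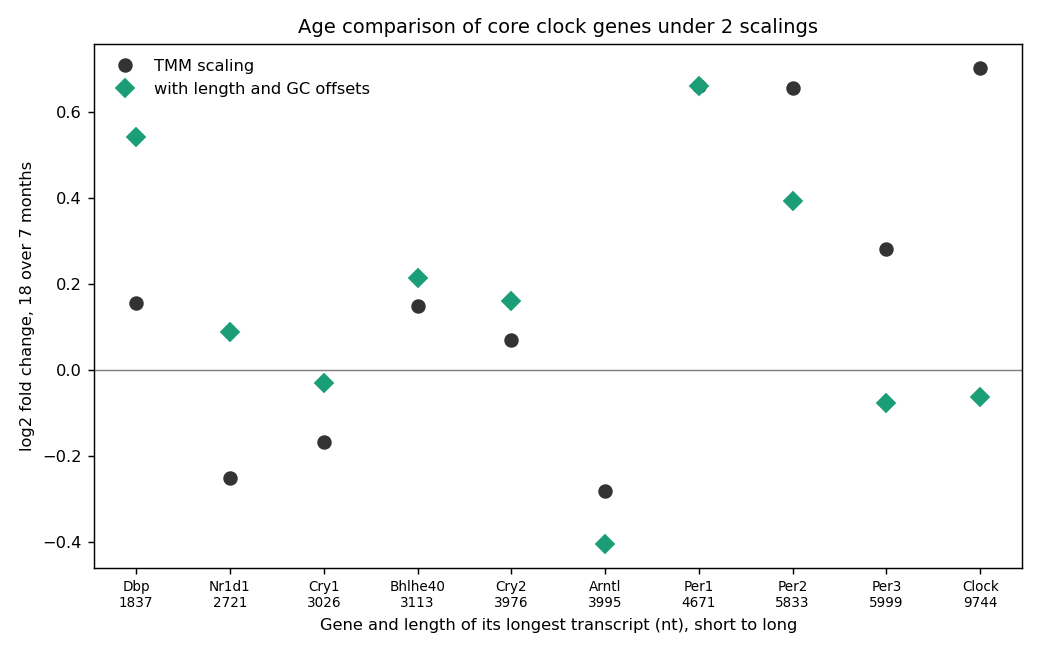
Log2 fold change of 18 over 7 months (vertical axis) for each clock gene, ordered by the length of its longest transcript (horizontal axis), under TMM scaling and with offsets for length and GC content. Per1 stays at 0.66 and Arntl stays below 0, while Clock (9744 nt) goes to -0.06 with the offsets and Dbp (1837 nt) to 0.54.

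Among the further clock genes 19 of 29 passed in the age comparison (13 higher, 6 lower), again near the 66.9% of all genes. The ROR gene Rorb had a log2 fold change of 0.87 (adjusted p = 6.28e-06) and Rora 0.78 (adjusted p = 7.47e-05). The kinase gene Gsk3b had 0.95 (adjusted p = 9.58e-06) and Fbxl21, which codes for an F-box protein that binds CRY, had 1.14 (adjusted p = 7.31e-05). These values are under TMM scaling, and values with the length and GC offsets are not reported for these genes. Among 7-month libraries each of these genes was highest in saline library 2, with its larger share of long transcripts. Gsk3b had 155 CPM there, against 102 and 99.0 CPM in 7-month saline libraries 1 and 3. Age and library set cannot be told apart for them either.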

How the data were processed

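Hippocampal RNA was sequenced in 12 libraries. The deposited tables, 1 per age, hold raw fragment counts per gene that the authors did not normalize. The submitters' processing notes name TopHat and the build GRCm38. The counting tool, annotation and strand setting are not given in the sources used here. Per the labels' protocols the kit was one for small RNA, although mRNA is what the tables mostly count. Groups came from the sample titles. Members and lists were chosen with earlier results of these data known.

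The test was edgeR's quasi-likelihood F-test (version 4.0.16, R 4.3.3, with TMM factors and filterByExpr, Benjamini-Hochberg at 0.05 over all genes tested). Each age was fitted alone for nicotine. The average, the difference between ages and the age comparison came from 4 group means over 12 libraries. The SE was taken as |log2 fold change| / sqrt(F). CPM use TMM factors of all 12 libraries, except Ttr, Gh and Rn18s-rs5, scaled by total counts. Ratios used raw counts. Exact permutation of 3 against 3 libraries cannot go below p = 0.1, so the model gives the only p for a gene. Named genes were all 10 members, up to 4 smallest-p genes of the further clock list per comparison, and the 5 genes most like Arntl, Dbp and Per2 (pseudocount 0.5 CPM, mean log2 CPM of at least 1).

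Alternatives were RLE factors, no low-count filter, DESeq2 1.42.0, a replicate block, each library left out, all 12 libraries in 1 fit, leaving out both 7-month libraries numbered 1, and offsets for length and GC content of the longest GENCODE M21 transcript (32194 genes matched). The 7-month libraries numbered 1 carry another prefix in their sample descriptions than the other 7-month libraries. What the prefix stands for is not given in the sources used here. Leaving out 7-month saline library 2 with nicotine library 1, or both 7-month libraries numbered 3, was added after the data were seen. Exon overlaps came from GENCODE M21 and promoter windows from RefSeq. The procedure was also run on simulated counts with equal spread for every gene and no outlying library. That run therefore does not speak for the 7-month libraries. Depth is the sum of counts, and statements on it cover counting error only. Python 3.11.15 with pandas 2.3.3, numpy 2.4.6, scipy 1.17.1 and matplotlib 3.10.9 made the tables and figures.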

Additional observations from a re-analysis of the deposited data

How the results depend on the processing

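The call that no clock gene passed for nicotine held in edgeR under RLE scaling, the length and GC offsets and the replicate block at either age, on average and for the difference between ages. It did not hold in DESeq2 (2 clock genes at 7 months, 1 at 18 months, 1 on average, 1 for the difference), without the low-count filter at 18 months (1), or without 7-month saline library 2 and nicotine library 1 (1 on average, 1 for the difference). With single libraries left out 0 to 1 passed at 18 months and 0 to 1 on average. Over all genes, the 8 calls at 18 months were 35 without the filter, 57 in DESeq2, 0 with all 12 libraries in 1 fit, and 5 to 21 with single libraries left out (5 without saline library 2, 21 without saline library 3, 18 without nicotine library 2). The 2 calls at 7 months were 6 without the filter, 83 in DESeq2, 9 with all 12 libraries, 0 without both libraries numbered 1, 1 without saline library 2 and nicotine library 1, 5 without both numbered 3, and 0 to 2 with single libraries left out (0 without nicotine library 1 and without saline library 2 or 3). The 7 calls on average were 15 without the filter, 79 in DESeq2, 12 with the offsets, 43 without 7-month saline library 2 and nicotine library 1, and 2 to 21 with single libraries left out, the highest without 7-month saline library 2. The 1 call for the difference was 36 in DESeq2, 2 without both 7-month libraries numbered 1, 6 without 7-month saline library 2 and nicotine library 1, and 0 to 3 with single libraries left out. The cause was not tested.

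Same-numbered libraries did not deviate together: correlations of their deviations were -0.113, -0.110 and -0.113 at 18 months and 0.0890, -0.0539 and -0.123 at 7 months. The numbers were therefore not used as pairs. With the replicate block the calls were 1 at 7 months, 3 on average and 0 for the difference, and Bhlhe40 at 18 months had an adjusted p of 0.143.

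Some log2 fold changes changed sign, among them the age values of Clock (0.70), Per3 (0.28) and Nr1d1 (-0.25), which had passed, and Clock at 7 months (-0.36). With the offsets they were 0.057 for Arntl and 0.0063 for Clock at 7 months, 0.0023 for Dbp at 18 months, 0.052 for Clock on average, -0.096 (Per3), 0.036 (Cry2) and 0.204 (Dbp) for the difference, and -0.063 (Clock), -0.076 (Per3) and 0.089 (Nr1d1) for age. Without 7-month saline library 2 and nicotine library 1 they were 0.0025 for Arntl at 7 months, 0.055 for Clock on average, and -0.101 (Per3) and 0.203 (Dbp) for the difference. Without both 7-month libraries numbered 3 they were 0.015 (Arntl), -0.102 (Per3) and 0.058 (Dbp) at 7 months, and without both numbered 1 the difference of Per3 was -0.065. Single libraries left out gave -0.072 to 0.0098 (Arntl), -0.070 to 0.076 (Per3) and -0.169 to 0.061 (Dbp) at 7 months, and -0.090 to 0.184 (Per3) at 18 months. They gave -0.180 to 0.046 (Clock), -0.025 to 0.107 (Per3) and -0.102 to 0.018 (Dbp) on average. For the difference they gave -0.097 to 0.144 (Per3), -0.083 to 0.018 (Cry2) and -0.128 to 0.118 (Dbp).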
